A study of Mus musculus with 6 samples.

Results

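Mouse intestinal organoids grown for 4 days with a compound that blocks RXR, the retinoid X receptors, were compared with organoids given the vehicle DMSO. Organoids are cultures of gut epithelium that form stem, absorptive and secretory cells. All deposited cells of both libraries were used, which were 3570 cells with the antagonist and 4787 with the vehicle, or 8357 of the 29565 cells of the 6 libraries in the study. The question addressed here was which gene programs differed between these organoids besides the extreme differences of Apoa1, Ly6a and Sis, and whether each difference lay in most cells or in a few.

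Both cultures came from wild-type C57BL/6 mice aged 8 weeks. They received EGF (100 ng/ml), Noggin (100 ng/ml) and R-spondin (500 ng/ml) throughout. Until day 3 they also received 20% Wnt3a-conditioned medium, the ROCK inhibitor Y-27632 (10 µM) and the GSK3B inhibitor CHIR99021 (3 µM). The antagonist, at 5 µM (the unit is written "μm" in the labels and read here as micromolar), or DMSO was added at day 0 and again at day 3, and cells were taken at 96 hours after sorting to discard debris and dead cells. The antagonist is named in the labels by its target alone. The study used organoids of 2 mice, and the labels do not say whether a library pools them. The other 4 libraries are day-4 organoids with 10 µM all-trans retinoic acid, day-4 organoids in vitamin A-free medium, and 2 libraries of day-1 vehicle organoids. Each side of the comparison is 1 library, so no test between treatments was possible, and differences are given by their size alone.

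RXR proteins pair with other nuclear receptors on DNA. Their partners include the retinoic acid receptors, the vitamin D receptor, the PPARs, which sense fatty acids, LXR, which senses oxidised sterols, and FXR, which senses bile acids. In the gut these pairs are known to control genes for the uptake and handling of fat, sterols, bile acids, minerals and vitamin A. After injury the intestinal epithelium is known to leave this absorptive state for a time and to express genes of the fetal gut, and it returns to the adult state as it heals.

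The antagonist library held 49364894 unique molecular identifiers (UMIs, the counted RNA molecules) and the vehicle library 52627278. The median cell had 13431 UMIs and 3736.5 genes with the antagonist, against 10825 UMIs and 3267 genes. The median share of mitochondrial UMIs was 1.84% against 3.58%. Another difference was Malat1, a nuclear RNA, which exceeded 2% of UMIs in 501 of the 3570 antagonist cells and 35 of the 4787 vehicle cells. The part of these differences in the results was not tested, apart from the values given below without the cells over 2% Malat1. The 2 libraries shared 4 cell barcodes, and pairs among all 6 shared from 2 to 17. Epithelial markers were present in both: Epcam was found in 99.8% of antagonist cells and in 100% of vehicle cells at equal depth. None of the 12 fibroblast and muscle, 11 endothelial and red blood cell or 10 neuron and glia markers reached 10 CPM (UMIs per 1000000 in the library) in either library. Their summed levels were 1.28 against 1.37, 1.03 against 1.41, and 2.01 against 3.40 CPM, with the antagonist first. Of 15 immune markers, Cd68 (11.5 against 1.25 CPM) and Cd14 (11.6 against 5.61 CPM) reached that level, while Ptprc, which marks all white blood cells, had 1 UMI with the antagonist and 0 UMIs with the vehicle.

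The comparison covered the 8382 genes that reached 10 CPM in either library. On the scale of log2(CPM + 5), 578 of them (6.9%) were higher by 2-fold or more in the antagonist library, and 701 (8.36%) were lower by 2-fold or more. The median log2 ratio over all genes was 0.01. In such sums, fewer cells of a type and less RNA per cell cannot be told apart. The higher genes held 18.8% of all UMIs with the antagonist and 4.91% with the vehicle, and the lower genes held 4.08% and 17.8%. Of the higher genes, 542 (93.8%) were above all 5 other libraries of the study, and of the lower genes 555 (79.2%) were below all 5. Among all genes compared, 27.7% were above and 17.5% below, and the vehicle is 1 of the 5, so the choice by fold sets part of these shares. Most of the higher genes thus lay outside the range of the day-1, retinoic acid and vitamin A-free libraries too. Members of gene lists are counted below where at least 1.5-fold apart, a size reached by 14.6% of all genes in the higher and 15.4% in the lower direction. A gene that reached 10 CPM in 1 library alone was likely to differ through that filter. Such members are counted beside some of the lists, and other lists hold them too. Ratios of named genes are ratios of CPM, with exact 95% intervals that cover counting error only.

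**Figure D1:**
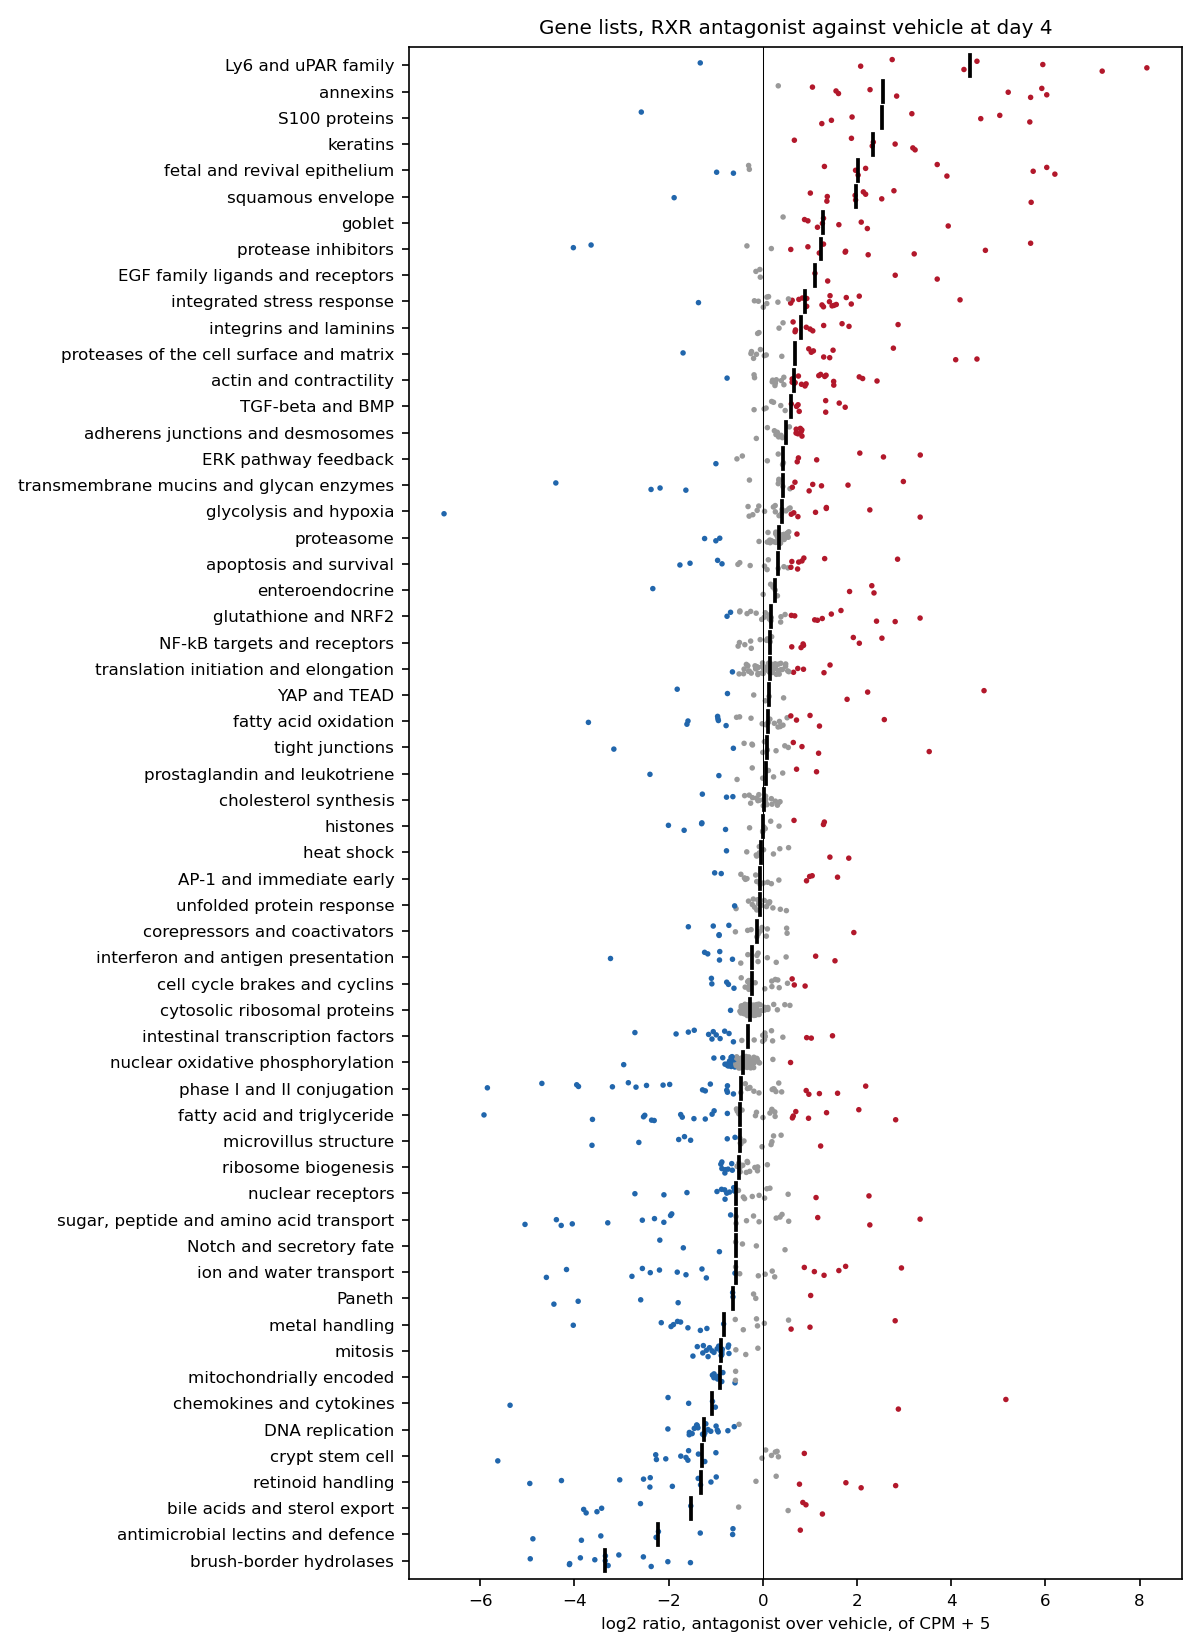
Log2 ratios (antagonist over vehicle, CPM + 5) of the genes of each list with at least 7 members at 10 CPM. Each point is a gene, coloured where it was at least 1.5-fold higher (red) or lower (blue), and the black bar is the median of the list. Annexins, S100 proteins, keratins and Ly6 genes lie to the right, with a median of 4.41 for the Ly6 family, and brush-border hydrolases lie farthest to the left, with a median of -3.34.

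Genes of the cytoskeleton and of the cell surface were higher as groups. All 7 keratins compared were higher, with a median log2 ratio of 2.35. Keratins form the intermediate filaments of epithelial cells. Krt7, a keratin of simple epithelia outside the adult intestinal villus, was at 1412 CPM with the antagonist and 151 with the vehicle, a ratio of 9.37 (9.16 to 9.60). The abundant Krt8, Krt18 and Krt19 were at 14625, 4377 and 14131 CPM against 2916, 620 and 2773 CPM. Krt20, a keratin of mature surface cells, was at 295 against 183 CPM and lay within the range of the other libraries. Of 29 actin and contractility genes, 18 were higher and 1 lower, with a median of 0.67. Tmsb4x, which binds free actin, was at 7299 against 1760 CPM, and Ezr, which links actin to the membrane, at 718 against 303 CPM. Among 14 integrin and laminin genes, which anchor cells to the basement membrane, 10 were higher and none lower. Of the 14, 5 reached 10 CPM with the antagonist alone. Lamb3, a laminin chain, was at 75.9 against 17.7 CPM.

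Junction genes divided by member. Of 15 tight junction genes, 4 were higher and 2 lower, with a median of 0.10. The claudins at its ends differed widely. Cldn4, a barrier claudin, was at 278 against 19.4 CPM (14.3-fold, 13.4 to 15.3). Cldn15, which forms sodium pores in the small intestine, was at 57.7 against 557 CPM (9.64-fold lower, 9.28 to 10.0). Cldn3 and Cldn7 were nearly level, at 1174 against 1173 and 1496 against 1229 CPM. Of 16 adherens junction and desmosome genes, 7 were higher and none lower, among them the desmosomal Dsp at 191 against 115 CPM.

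Calcium-binding proteins of the membrane were higher as well. Of 10 annexins, 9 were higher and none lower (median 2.56), 4 of them at 10 CPM with the antagonist alone, and of 8 S100 genes 7 were higher and 1 lower (median 2.53). Anxa3 was at 825 against 7.70 CPM (107-fold, 97.2 to 118), Anxa5 at 780 against 16.2 CPM and Anxa1 at 269 against 0.323 CPM. Anxa13, the annexin of mature enterocytes, was the member that stayed within 1.5-fold, at 687 against 546 CPM. S100a6 was at 3097 against 55.9 CPM and S100a11 at 1257 against 46 CPM. The exception was S100g, a calcium carrier of enterocytes and a known target of the vitamin D receptor, at 83.4 against 523 CPM. The lectin Lgals3 was at 2877 against 48.8 CPM, and Tm4sf4, a tetraspan membrane protein, at 2014 against 96.6 CPM. Both were above all 5 other libraries.

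Genes known from squamous epithelium were also higher as a group, and so were a few known from the stomach. The vehicle library held squamous genes too, with a list sum of 651 CPM against 2865 CPM with the antagonist. At day 1 the sums were 829 and 1053 CPM. Of 11 genes of the squamous envelope, the protein shell of skin and oral surface cells, 10 were higher and 1 lower, and 5 and 1 of these reached 10 CPM in that library alone. Sprr1a was at 487 against 4.47 CPM. Ivl, which encodes involucrin, was at 23.8 CPM against 0 UMIs. Trim29, known from stratified epithelia, was at 77.5 CPM with the antagonist. It had 0 UMIs with the vehicle, and set against the 3 UMIs that a count of 0 allows in a library it was higher by at least 1360-fold. Of 23 gastric genes 18 stayed under 10 CPM in both libraries, and 4 of the other 5 reached it with the antagonist alone, so that their direction follows from the filter. Among them was Tff1, a secreted peptide of stomach surface cells, at 181 CPM, while the vehicle had 0 UMIs (a difference of at least 3176-fold). Anxa10 was at 495 against 3.23 CPM. Of the Ly6 and urokinase receptor family, 7 of 8 were higher, 6 of them at 10 CPM with the antagonist alone. Plaur, the urokinase receptor, was at 292 against 7.71 CPM, while Lypd8, a colonocyte antibacterial protein, was lower at 1406 against 3536 CPM. UMIs of close paralogs such as Sprr2a, Ly6 or Reg3 genes may be assigned uncertainly between members.

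Extracellular proteases and their inhibitors were higher together. Of 18 proteases, 9 were higher and 1 lower, and of 14 inhibitors 10 were higher and 2 lower. With the antagonist alone, 4 of these proteases and 5 of the inhibitors reached 10 CPM, and 2 inhibitors did so with the vehicle alone. Plat, the tissue plasminogen activator, was at 101 against 1.20 CPM and Bace2 at 54.2 against 3.67 CPM. Wfdc2, a secreted protein of airway and reproductive epithelia, was at 131 against 0.152 CPM. Serpinb1a, which blocks proteases of neutrophils, was at 2834 against 597 CPM. On the lower side stood Spink1, which blocks trypsin, at 0 UMIs against 76.3 CPM (at least 1255-fold lower). F3, the tissue factor that starts coagulation, was at 472 against 13.4 CPM.

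Growth factor genes were in part higher. Of 7 genes of the EGF family, 4 were higher: Areg (1754 against 130 CPM), Btc (169 against 19.7), Tgfa (27.9 against 7.64) and the receptor Egfr (22.4 against 7.71). Hbegf, Erbb2 and Erbb3 were within 1.5-fold. Genes known to answer ERK signalling were higher in 6 of 13 cases and lower in 1. Ier3 was at 282 against 23.2 CPM and Phlda1 at 642 against 105 CPM. The stem-cell regulator Lrig1, a negative regulator of the EGF receptor, was lower at 12.5 against 29.9 CPM. Of 17 AP-1 and immediate early genes, 4 were higher and 2 lower. Jun (550 against 512 CPM), Fos (635 against 660) and Egr1 (137 against 179) were within 1.5-fold. Components and targets of the YAP and TEAD pathway were mixed, with 3 of 9 higher, among them F3, and 2 lower. Ccn2 was at 21.0 against 0.551 CPM and Ccn1 at 12.7 against 24.7 CPM, so these known targets of the pathway differed in opposite directions.

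Immune signals from the epithelium differed by gene. Il1rn, the antagonist of the interleukin-1 receptor, was at 183 against 0.247 CPM (740-fold, 433 to 1391) and the chemokine Cxcl16 at 89.3 against 7.81 CPM. The other 5 of 7 chemokines and cytokines were lower. Ccl25, which draws lymphocytes to the small intestine, was at 20.4 against 1045 CPM (51.1-fold lower, 48.0 to 54.4), and Il18 was at 58.5 against 251 CPM. Cell death genes split in the same way. Ripk3 and Mlkl, the kinase and the effector of necroptosis, were at 403 against 51.1 CPM and 16.3 against 3.55 CPM. Casp1, Casp4 and Casp6 were lower, with Casp1 at 45.7 against 167 CPM. Over the list of 21 cell death genes, 8 were higher and 4 lower.

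Of 22 nuclear receptors, not all of which pair with RXR, 2 were higher and 11 lower, with a median of -0.56. Pparg was higher, at 166 against 30.8 CPM (5.38-fold, 5.11 to 5.68), and was found in 50.8% of antagonist cells and 13.7% of vehicle cells. The other higher member was Rarg, a retinoic acid receptor, at 11.5 against 2.53 CPM. Vdr, the vitamin D receptor, was at 13.6 against 117 CPM (8.62-fold lower, 7.96 to 9.35), and Nr1h3, which encodes LXR alpha, at 2.80 against 28.4 CPM. Nr1h4 (FXR, 63.8 against 42.4 CPM) and Ppara (38.3 against 52.6 CPM) were within 1.5-fold on the log2(CPM + 5) scale. The drug's own targets were Rxra at 9.20 against 19.7 CPM and Rxrb at 24.9 against 34.1 CPM, and Rxrg had 0 UMIs in both libraries. Of 26 intestinal transcription factors, 3 were higher and 12 lower. Within this list Hnf4a (172 against 148 CPM) and Cdx2 (221 against 221 CPM), identity factors of the intestine, were near level. Its lowest member was Vdr, given above.

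Genes for handling vitamin A were lower in 11 of 17 cases and higher in 4 (median -1.32). Rbp2, which carries retinol inside enterocytes, was at 1182 against 6250 CPM. The oxidising enzymes Rdh7, Adh1 and Aldh1a1 were at 1.86 against 207, 25.6 against 588 and 30.3 against 285 CPM. The higher genes included other members of the same classes. Rdh10, a retinol dehydrogenase known from embryos, was at 113 against 29.6 CPM, and Fabp5, which carries fatty acids and retinoic acid, at 956 against 131 CPM. Isx, a repressor known to be switched on by retinoic acid, was at 84.0 against 172 CPM, and at 0.0577 CPM in vitamin A-free medium.

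Absorptive genes were lower most uniformly among the brush-border hydrolases, of which all 13 compared were lower (median -3.34), 11 of them at 10 CPM in the vehicle library alone. Alpi, the intestinal alkaline phosphatase, was at 3.61 against 259 CPM and Anpep, an aminopeptidase, at 5.81 against 181 CPM. Fat handling was less uniform, with 13 of 32 genes lower and 7 higher. Apob, the scaffold of chylomicrons, was at 0.993 against 358 CPM and the carrier Fabp2 at 418 against 2167 CPM, while the lipin Lpin2 was at 131 against 28.0 CPM. Fatty acid oxidation was split, with 5 of 26 higher and 7 lower. Acadl, a dehydrogenase of long chains, was at 595 against 255 CPM, and Hadh, which acts later in the cycle, at 291 against 900 CPM. Of 24 cholesterol synthesis genes, none was higher and 3 lower. Among 11 bile acid and sterol transporters 6 were lower, with the sterol exporter Abcg5 at 5.45 against 141 CPM. Slc10a2, the bile acid importer, was higher at 10.1 against 1.27 CPM. Of the 11, 4 reached 10 CPM with the vehicle alone and 2 with the antagonist alone.

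Several genes of fructose use and of the urea cycle, for which no list was made and which were picked for their values, were far lower. Khk, which phosphorylates fructose, was at 27.9 against 976 CPM, Tkfc at 65.0 against 794 CPM, and the fructose transporter Slc2a5 at 0.142 against 79.9 CPM. These genes serve the uptake and breakdown of fructose. Cps1 and Otc, which begin the urea cycle, were at 0.162 against 367 CPM and 0.101 against 288 CPM, and the arginase Arg2 at 56.2 against 808 CPM. Of 23 genes for the transport of sugars, peptides and amino acids, 11 were lower and 3 higher (median -0.57). Of these 23, 9 reached 10 CPM with the vehicle alone and 1 with the antagonist alone, so much of this direction follows from the filter. Of 25 genes of glycolysis and hypoxia, 8 were higher, 1 was lower and 16 were within 1.5-fold. Hk1, a hexokinase, was at 112 against 6.57 CPM (17.1-fold, 15.3 to 19.1) and the glucose transporter Slc2a1 at 412 against 81.2 CPM.

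Enzymes that oxidise and conjugate drugs and bile acids were lower in 17 of 35 cases and higher in 5. Sult1b1, a sulfotransferase, was at 0.304 against 301 CPM, and Cyp3a25 at 0 UMIs against 124 CPM (at least 2043-fold lower). Gsta4, which detoxifies products of lipid oxidation, was higher at 3464 against 1149 CPM, and so was Cyp1a1, a target of the aryl hydrocarbon receptor, at 21.4 against 0.798 CPM.

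Ion and metal transport were lower in part. Of 23 ion and water transport genes 11 were lower and 6 higher, and of 19 metal genes 10 were lower and 3 higher. Atp1b1, the beta subunit of the sodium pump, was at 389 against 1384 CPM, below all 5 other libraries. Slc26a6, an anion exchanger, was at 1.90 against 162 CPM, and the water channel Aqp3 was higher at 36.7 against 0.418 CPM. Fth1, the heavy chain of the iron store ferritin, was at 4142 against 12479 CPM, whereas the light chain Ftl1 was at 3813 against 1901 CPM. Ncoa4, the receptor that takes ferritin to the lysosome, was at 198 against 48.1 CPM, and Tfrc, which imports iron, at 31.9 against 137 CPM. Slc39a5, a zinc importer, was at 9.95 against 238 CPM.

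Stress programs separated from each other. Of 26 genes of the integrated stress response, which is set off by shortage of amino acids or other stress, 17 were higher and 1 lower (median 0.89), and 20 lay above all 5 other libraries. Nupr1 was at 1172 against 59.6 CPM (19.7-fold, 19.0 to 20.4), Asns, asparagine synthetase, at 491 against 169 CPM, and Chac1, which breaks down glutathione, at 45.7 against 13.3 CPM. Atf4, the factor at the head of this response, was level at 304 against 301 CPM. Of 18 genes of the unfolded protein response, none was higher and 1 lower. In the glutathione and NRF2 list 10 of 27 were higher and 2 lower. Slc7a11, the cystine importer, was at 111 against 6.44 CPM, Hmox1, haem oxygenase, at 88.1 against 8.27 CPM, and Gclc, which starts glutathione synthesis, at 296 against 51.4 CPM, while Nqo1 was within 1.5-fold at 106 against 80.0 CPM. Of 76 nuclear genes of oxidative phosphorylation 16 were lower and 1 higher (median -0.42), and 51 lay below all 5 other libraries. All 10 mitochondrially encoded genes lay below them, with mt-Nd1 at 3552 against 7301 CPM, which moves with the lower mitochondrial share of the antagonist cells given above.

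Levels across the 6 libraries showed which of the higher genes also differed at day 1. Anxa3 was at 111 and 159 CPM in the day-1 libraries, 16.6 CPM in vitamin A-free medium and 6.92 CPM with retinoic acid, against 825 CPM with the antagonist. Krt18 was at 3689 and 3988 CPM at day 1, close to the 4377 CPM of the antagonist library. In contrast, Hk1 lay at 5.04 and 7.39 CPM at day 1 and 112 CPM with the antagonist, and Fut2, a fucosyltransferase, at 0.632 and 1.67 CPM at day 1 and 58.5-fold higher with the antagonist than with the vehicle. Nupr1 was at 9.92 and 24.0 CPM at day 1 and 136 CPM in vitamin A-free medium. So some of these genes were also above the day-4 vehicle at day 1, and others, such as Hk1 and Fut2, were high in the antagonist library alone among the 6.

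**Figure D2:**
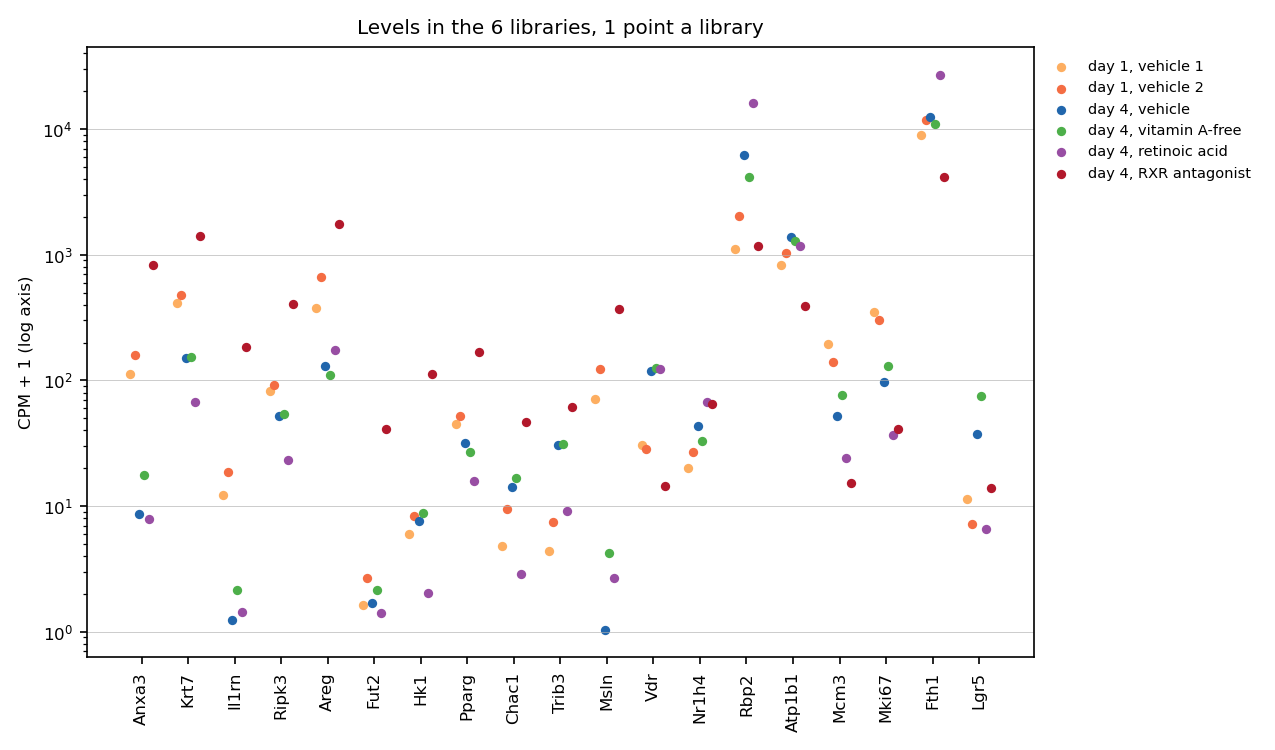
Levels of selected genes (CPM + 1, log axis) in each of the 6 libraries, with 1 point per library. For Hk1 the antagonist point, at 112 CPM, stands apart from the other 5, while for Krt7 the day-1 libraries, at 412 and 473 CPM, lie between the vehicle (151 CPM) and the antagonist (1412 CPM).

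Next, the spread across cells was measured in cells thinned at random to 5000 UMIs each, which left 3342 of 3570 antagonist and 4419 of 4787 vehicle cells. At this depth Anxa3 was found in 87.9% of antagonist cells and 2.22% of vehicle cells, S100a11 in 93.2% and 17.6%, Krt7 in 91.3% and 46.5%, and Tm4sf4 in 96.7% and 23.9%. Detection thus differed across most cells. Other genes were found in few cells even where high, such as Sprr1a (19.5% against 0.475%), Tff1 (6.37%) and Ivl (5.42%). Tff1 and Ivl were found in 0 of 4419 vehicle cells, which allows a share of cells with a UMI at this depth of up to 0.0679% and sets no limit on cells that express them. Of the 578 higher genes, 151 were found in at least 50% of antagonist cells and 154 in under 10%. Of the 701 lower genes, 124 were found in at least 50% of vehicle cells and 185 in under 10%. In 8 of the 151 and 14 of the 124 the share in the other library was under 5%.

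**Figure D3:**
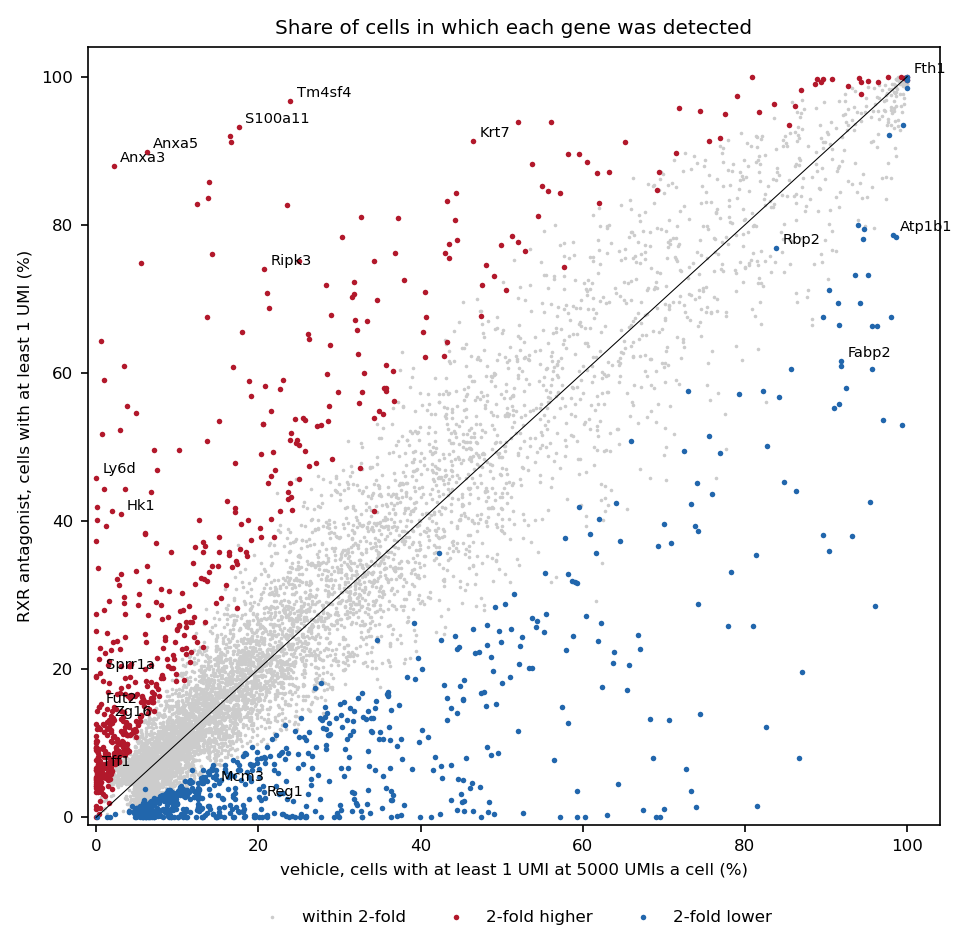
Percent of cells with at least 1 UMI of each gene at 5000 UMIs a cell, with the vehicle on the x axis and the antagonist on the y axis. Points are genes, red for at least 2-fold higher, blue for at least 2-fold lower and grey for the rest. Anxa3 and Anxa5 stand near the upper left corner, at 87.9% against 2.22% and 89.8% against 6.22%, and Fabp2 lies below the diagonal on the right, at 61.5% against 91.9%.

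Free RNA in the droplets adds UMIs to cells that do not express a gene. It was gauged in hormone-rich cells (at least 20 UMIs of enteroendocrine genes), of which there were 33 with the antagonist and 38 with the vehicle. Their median depth was 8209 UMIs with the antagonist, against 13770 in the other cells, and 5876.5 against 11147 with the vehicle. Lgals3 was found in 33.3% of the hormone-rich and 92.6% of the other antagonist cells, and Ly6d in 24.2% and 46.1%. Anxa3 was found in 45.5% and 88.3%, S100a6 in 48.5% and 86.2%, and S100a11 in 66.7% and 93.5%. These shares in hormone-rich cells are high, and the part of free RNA in the detection of such abundant genes was not tested. For Krt7 (75.8% and 91.5%), Krt19 (93.9% and 100%) and Tm4sf4 (100% and 96.7%) no background could be read, since with the vehicle the hormone-rich cells themselves held them in 92.1%, 68.4% and 94.7%. For Sprr1a (18.2% and 19.5%), Tff1 (9.09% and 6.35%) and Zg16 (30.3% and 13%) the shares were close or higher in hormone-rich cells, of which there were few. Cells with a single UMI of these genes are therefore not read as expressing them. Mean UMIs per cell were 3.30 and 2.62 for Sprr1a, 0.0909 and 0.857 for Tff1, and 2.94 and 7.55 for Zg16. Some hormone-rich cells thus held more than 1 UMI of Sprr1a or Zg16, and whether this was free RNA was not tested. Fabp2 was found in 12.1% and 62.0%, so its remaining share with the antagonist stood above this background. In the vehicle library Fabp2 was found in 23.7% of the hormone-rich and 92.4% of the other cells.

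Summed over each list, the UMIs of a cell showed how far the 2 populations overlapped. For annexins, 91.3% of antagonist cells lay above the 95th percentile of vehicle cells, and for keratins 89.8%. The share was 75.7% for fetal and revival genes, 73.4% for S100 proteins, 61.5% for protease inhibitors and 61.2% for actin genes. It was lower for squamous genes (34.4%), the integrated stress response (30.8%) and goblet genes (24.6%). On the lower side, 64.5% of antagonist cells fell under the 5th percentile of vehicle cells for mitochondrially encoded genes and 62.4% for ion and water transport. Where that percentile was 0, as for brush-border hydrolases and crypt stem cell genes, no cell could fall under it. Among pairs of an antagonist and a vehicle cell, with ties shared equally, the antagonist cell was higher in 10.6% for brush-border hydrolases. The value was 44.0% for crypt stem cell and 8.09% for mitochondrially encoded genes. The sums of keratins and annexins thus overlapped least, and those of the stress response overlapped in most cells. A sum is led by the most abundant members of its list.

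**Figure D4:**
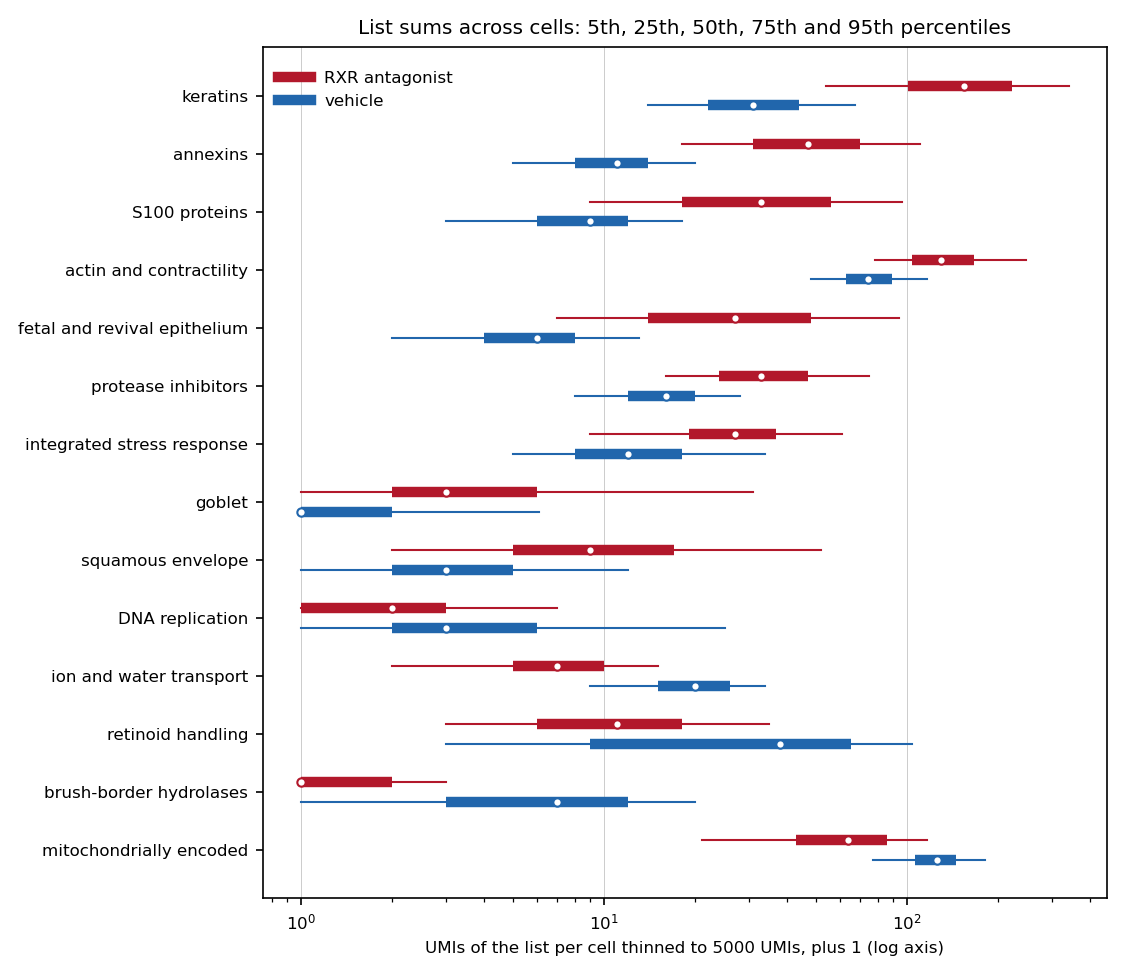
UMIs of each list per cell thinned to 5000 UMIs, plus 1, on a log axis. Circles mark the median, thick bars the 25th to 75th and thin lines the 5th to 95th percentiles across cells, with red for the antagonist and blue for the vehicle. The bars of keratins and annexins are well apart (89.8% and 91.3% of antagonist cells lie above the vehicle's 95th percentile), while those of DNA replication and retinoid handling overlap.

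Variation between cells was compared by the Fano factor, the variance divided by the mean, over 5207 genes with at least 0.1 UMI a cell on average in both libraries. The median was 1.06 in both. By this factor 126 genes (2.42%) were at least 1.5 times more variable with the antagonist, and 63 (1.21%) were less variable. The factor can rise with the mean of a gene, so it does not show spread relative to the level. Of the 126, 72 were also 2-fold higher, 3 were 2-fold lower and 51 were neither. Of the 63, 39 were 2-fold lower, 1 was higher and 23 were neither. Most genes called by the Fano factor thus differed in level in the same direction. The reverse did not hold: 236 of the genes compared were 2-fold higher and 226 lower, and most of these did not reach the Fano threshold. Lgals3 had a Fano factor of 20.1 against 2.66, S100a6 19.6 against 3.56 and Krt8 22.2 against 5.51. Malat1 had 65.0 against 11.1. Krt20, at 295 against 183 CPM, had 7.21 against 2.09. Among the less variable genes were Fth1 (3.98 against 27.1) and the fructose enzymes Khk and Tkfc (1.10 against 4.06 and 1.15 against 4.59). For Rnase4 and Ang, overlapping genes of secreted ribonucleases whose UMIs may be assigned uncertainly between them, the level was similar (57.8 against 56.8 CPM for Rnase4) and the Fano factor was 1.32 against 3.52 and 1.17 against 2.76. Without the cells over 2% Malat1, 85 genes were more and 70 less variable.

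Genes found in few antagonist cells shared cells in some pairs and not in others. Taking cells with at least 3 UMIs at 5000, Muc2, the goblet cell mucin, marked 99 cells, of which 98.0% also had Tff3 and 75.8% Zg16, but 4.04% had Ly6d and 3.03% Msln. Over all antagonist cells Ly6d was found at this level in 32.8% and Msln in 21.2%. Clu, a marker of the revival stem cells seen after injury, marked 134 cells, of which 84.3% had Msln, 48.5% Wfdc2 and 0.746% Muc2. Krt4 marked 70 cells, of which 88.6% had Msln, 35.7% Clu (4.01% of all antagonist cells) and 12.9% Sprr1a (11.5% of all). Sprr2f marked 82 cells, of which 80.5% had Cldn4 and 72.0% Sprr1a. Mcpt2, a mast cell protease, marked 122 cells, of which 89.3% had Ly6d and 13.9% Ivl, and in the 41 cells marked by Ivl 41.5% had Mcpt2. For Sprr2f with Muc2, Krt4 or Clu, the 82 cells were too few to show a share below that of all cells: 3.66% had Clu, and a count of 0, as found for Muc2 and Krt4, allows up to 3.66%. Ly6d and Msln were found in 10% and 9.09% of the 110 Zg16 cells and in 15.3% and 10.5% of the 295 Tff3 cells. Muc2 was found in 32.9% of the Tff3 cells. Sprr1a was found in 30.3% of the Muc2 and 34.5% of the Zg16 cells, above its share of all cells. Cells with goblet genes thus held Ly6d and Msln less often than all antagonist cells did, and Sprr1a more often. These groups of cells were not named as cell types.

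**Figure D5:**
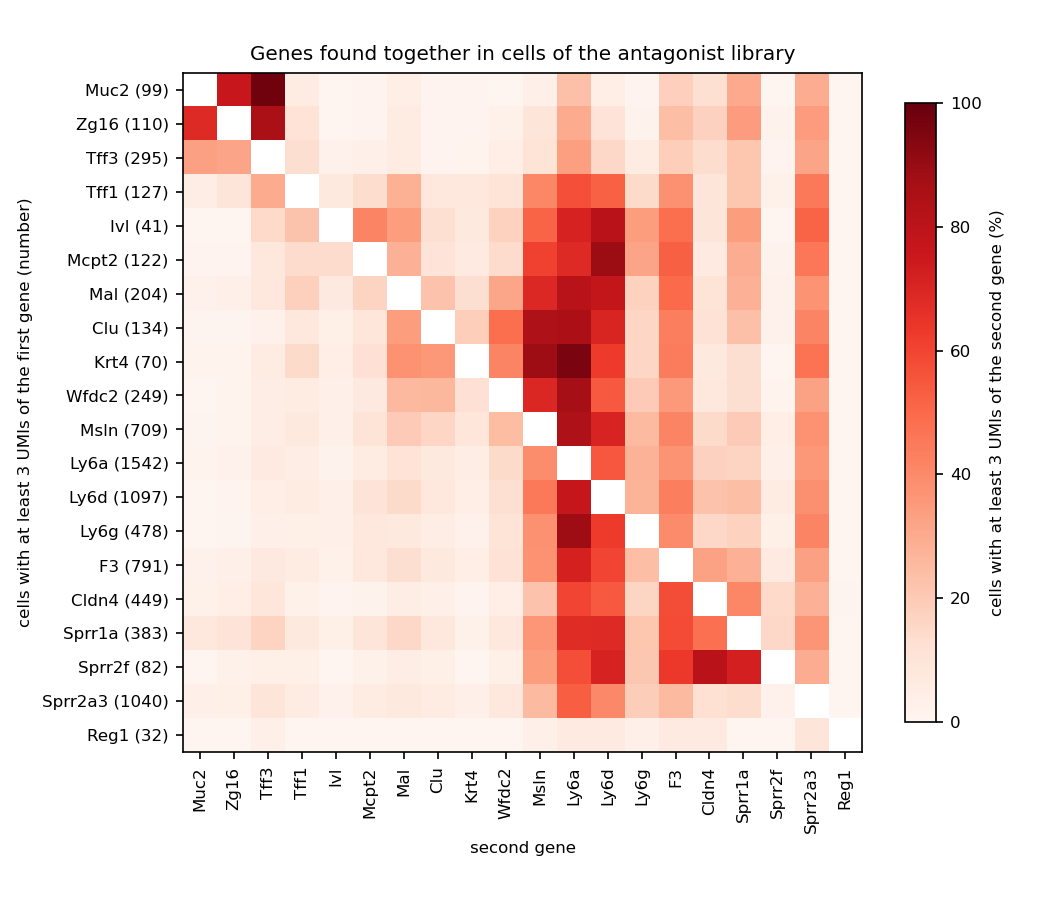
Cells of the antagonist library with at least 3 UMIs of the first gene (rows, number of cells in parentheses) that also had at least 3 UMIs of the second gene (columns), in percent from white (0) to dark red (100). Muc2, Zg16 and Tff3 form one block, with Tff3 in 98.0% of the Muc2 cells, and Sprr2f, Sprr1a and Cldn4 another, with Cldn4 in 80.5% of the Sprr2f cells.

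Secretory cells differed by type. All but 1 of 10 goblet genes were higher and none was lower (median 1.28), with Zg16 at 1343 against 83.0 CPM and Agr2, a protein-folding enzyme of secretory cells, at 1494 against 347 CPM. Muc2 was found in 3.80% of antagonist and 1.97% of vehicle cells, whereas Agr2 was found in 60.8% and 16.8%. Agr2 was also found in 54.7% and 12.6% of the cells with no UMI of the other goblet genes, so its level is not read as goblet cells. At least 5 UMIs of Muc2 were found in 2.54% against 0.498% of cells, and of Agr2 in 20.3% against 3.48%. For Galnt12, another goblet gene, the shares were 0.120% against 0.136%. Of 9 Paneth genes 6 were lower and 1 higher. Lyz1, the lysozyme of Paneth cells, was at 2.03 against 147 CPM and the defensin Defa24 at 28.1 against 496 CPM. Of 9 antimicrobial genes 8 were lower, with Reg3a at 0.122 against 146 CPM, and Pglyrp1, which binds bacterial walls, was higher at 697 against 399 CPM. Among enteroendocrine genes, Cck was at 380 against 102 CPM, Chgb at 180 against 179 CPM and Gip at 0.385 against 22.2 CPM. At equal depth, at least 5 UMIs of Cck were found in 15 against 11 cells, of Chgb in 29 against 29 and of Gip in 1 against 1. These levels thus rest on few cells and are not read as differences by hormone. Of the 9 enteroendocrine genes compared, 0 lay above and 0 below all 5 other libraries. The difference in Gip was not present without the cells of highest doublet score, where its log2 ratio was 0.066.

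Fewer cells counted as dividing with the antagonist. Of 21 DNA replication genes 20 were lower, and 18 of the 21 lay below all 5 other libraries. Of 23 mitosis genes 20 were lower, but only 4 of the 23 lay below all 5. The mitosis list summed to 771 CPM with the antagonist, 1566 CPM with the vehicle and 580 CPM with retinoic acid. With the vehicle alone, 7 of the replication and 4 of the mitosis genes reached 10 CPM. Mcm3, a part of the helicase that opens DNA for copying, was at 14.1 against 51.4 CPM and Mki67, which coats chromosomes in mitosis, at 39.9 against 95.5 CPM. Cells with at least 5 UMIs of replication and mitosis genes at equal depth made up 18.7% (626 of 3342, exact interval 17.4% to 20.1%) against 35.8% (1580 of 4419, 34.3% to 37.2%) with the vehicle. With at least 3 UMIs the shares were 38.0% and 54.0%, and with at least 10 UMIs 10.7% and 27.8%, so the order held and the ratio did not. Near the threshold of 5, with 4 or 5 UMIs, lay 367 and 459 cells. Of the genes higher in all cells and measured in dividing cells, 391 of 540 were also 2-fold higher there, and 440 of 613 of the lower genes were 2-fold lower there. Over all 8684 genes measured in dividing cells, 5.17% were 2-fold higher and 6.74% lower. So most differences were also present among dividing cells. In the other cells the counts were 548 of 572 for higher and 573 of 608 for lower genes, against 9.93% and 8.9% of 8033 genes. Both classes were part of the sums by which the genes were chosen, so this choice sets part of the agreement. The other cells made up 81.3% of antagonist and 64.2% of vehicle cells, so agreement there was nearly given in advance. Anxa3 was at 806 against 12.9 CPM in dividing cells and 827 against 4.61 CPM in the others. Cps1 was at 0.103 against 651 CPM in dividing cells, where the vehicle held more of it than its other cells did (197 CPM).

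Stem cell and ribosome assembly genes differed between the dividing and the other cells. Each class is a range of a sum and not a cell type. The genes that set the classes were themselves lower with the antagonist, so cells of like state may fall in different classes. The part of this in the values below was not tested. Of 18 genes of crypt stem cells, 11 were lower over all cells, and Aqp4 was higher (median -1.30). Among dividing cells, 14 of 20 were lower and none higher (median -1.82), where 15.4% of all genes were 1.5-fold lower. In the other cells, 6 of 14 were higher and 2 lower (median 0.51), where 23.1% of all genes were 1.5-fold higher and the median over all genes was 0.20. Lgr5, the receptor that marks crypt stem cells, was at 23.6 against 91.9 CPM in dividing cells and 10.1 against 3.21 CPM in the others. In those other cells Lgr5 reached 10 CPM with the antagonist alone. Olfm4, another crypt stem cell marker, was at 2.16 against 723 CPM in dividing cells. Axin2, a target of Wnt signalling, was at 2.78 against 27.4 CPM over all cells. Ribosome biogenesis genes were lower in 15 of 23 cases among dividing cells and higher in 7 of 19 among the others. Nucleolin, Ncl, was at 751 against 1398 CPM in dividing cells and 291 against 240 CPM in the others.

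Genes that differed in the same direction lay next to each other more often than genes in general. The next gene along the chromosome (among those at 10 CPM) was also 2-fold higher for 74 of 563 higher genes (13.1%), against 6.89% of all next genes. For lower genes it was 117 of 688 (17%) against 8.37%. In GRCm38 coordinates, 14 higher genes in a row, of the S100 and Sprr families with Ivl, lay at chr3:90511034-93564643. Another 9 from Psca to Ly6g lay at chr15:74714839-75159126, and the 5 keratin genes Krt7, Krt4, Krt79, Krt8 and Krt18 at chr15:101411043-102032027. Runs of 4 lower genes held Cyp2c65, Cyp2c66, Cyp2c29 and Cyp2c68 at chr19:39061015-39741054, and Reg3b, Reg3a, Reg1 and Reg3g at chr6:78370657-78468872. The runs named so far are of gene families that arose by duplication, so their members are not independent of each other. Not all runs were of a single family: another run of 4 lower genes held Myo1a, Rdh7, Hsd17b6 and Prim1.

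Promoter sequences were compared because so many genes differed together. RefSeq promoters (build GRCm38.p6, from 250 bases before to 50 after the start) were found for 6698 of the 8382 genes, and motifs were searched on both strands. The AP-1 motif TGANTCA was in a promoter of 52 of 436 higher genes (11.9%), 49 of 555 lower genes (8.83%) and 6.17% of all 6698 genes. Among the genes at least 16-fold higher it was in 9 of 24. The HNF4 motif CAAAGTCCA was in 2 of 436 higher genes (0.459%), 19 of 555 lower genes (3.42%) and 0.657% of all. Over the 32851 promoters of the table the shares were 7.81% for AP-1 and 0.475% for HNF4. The TEAD motif GGAATG was in 17.7% of higher, 19.5% of lower and 14.1% of all genes, and TGACNNNGC, the antioxidant response element, which can overlap an AP-1 match, in 19.7%, 14.2% and 17.5%. The DR1 motif, the direct repeat to which RXR pairs are known to bind, was in 0 of the higher and 0 of the lower genes and in only 3 of all 6698, too few to compare. A match is a description of letters and not a bound site.

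Shown are the 250 bases before the start of 2 far higher genes with an AP-1 match and 2 far lower genes with an HNF4 match, chosen after their values were known. They are printed 5′ to 3′ on the strand of the gene, with the matches in capitals. Il1rn lies on the + strand at chr2:24336610-24336859, and its match begins 141 bases before the start. Sprr1a lies on the minus strand at chr3:92485882-92486131, with matches 146 and 116 bases before the start. Alpi lies on the minus strand at chr1:87101607-87101856, with its match 19 bases before the start. Cyp3a11, a drug-oxidising enzyme with 0 UMIs against 85.7 CPM, lies on the minus strand at chr5:145879855-145880104, with its match 109 bases before the start.
Il1rn: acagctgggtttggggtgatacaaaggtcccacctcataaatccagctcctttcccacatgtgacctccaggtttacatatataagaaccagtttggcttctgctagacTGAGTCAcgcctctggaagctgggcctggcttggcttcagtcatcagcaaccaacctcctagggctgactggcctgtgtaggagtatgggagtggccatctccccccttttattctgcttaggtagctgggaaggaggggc
Sprr1a: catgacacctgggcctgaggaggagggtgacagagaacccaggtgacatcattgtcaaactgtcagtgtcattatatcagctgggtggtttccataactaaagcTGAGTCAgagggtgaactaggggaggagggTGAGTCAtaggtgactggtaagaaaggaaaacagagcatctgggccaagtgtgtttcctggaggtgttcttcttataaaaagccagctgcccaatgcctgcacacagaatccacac
Alpi: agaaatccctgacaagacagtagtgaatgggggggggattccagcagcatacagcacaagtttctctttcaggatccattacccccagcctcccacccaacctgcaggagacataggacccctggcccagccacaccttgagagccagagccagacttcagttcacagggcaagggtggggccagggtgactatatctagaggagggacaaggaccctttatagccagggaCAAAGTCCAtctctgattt
Cyp3a11: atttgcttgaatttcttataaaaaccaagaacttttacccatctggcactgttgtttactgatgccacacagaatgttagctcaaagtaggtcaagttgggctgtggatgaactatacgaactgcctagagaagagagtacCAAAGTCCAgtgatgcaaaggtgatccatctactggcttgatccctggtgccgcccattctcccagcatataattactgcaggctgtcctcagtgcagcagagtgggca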

How the data were processed

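Cells were profiled with a 10x Genomics 3' kit, per the labels' protocols. The deposited matrices hold raw UMI counts for 55335 genes. The submitters' processing notes name bcl2fastq 2.17, Cell Ranger 3.1.0 and the build GRCm38. In these 2 libraries no cell had fewer than 1002 genes or more than 10% of UMIs from mitochondria, and all were kept. Scrublet (scanpy 1.11.5) called 0 and 6 doublets, too few to have worked, so doublets were not removed, and an alternative left out the 102 and 183 highest scores.

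UMIs were summed per library, scaled to CPM and compared as log2(CPM + 5) for genes with at least 10 CPM in 1 library. For values per cell, cells with at least 5000 UMIs were thinned to 5000 at random, leaving out 228 antagonist and 368 vehicle cells. Cells of 1 library are not replicates, so no p-value was computed. Poisson and Clopper-Pearson intervals cover counting error only. The calculations were tested on simulated data.

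The comparison and the 65 gene lists were chosen with earlier results of these data known. Genes named are the 40 highest and 40 lowest, up to 8 per list, the 20 with the largest gain or loss in share of cells, and the 15 most altered in Fano factor either way. Others, such as Hnf4a, Cdx2, Atf4, Jun, Cldn3, Mki67 and the genes of the co-occurrence analysis, were named for their role after their values were seen. Alternatives included TMM scaling (edgeR 4.0.16). Python 3.11.15, scipy 1.17.1 and R 4.3.3 were used.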

Additional observations from a re-analysis of the deposited data

How the results depend on the processing

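With a floor of 50 CPM, 312 genes were higher and 366 lower, and with a pseudocount of 20 CPM 318 and 389. Under the other settings the counts were 490 to 702 and 599 to 868. Of the genes called, 45.2% were higher, against 41.9% without mitochondrial and ribosomal protein genes and 48.8% with TMM. Thinning to 3000 UMIs gave 31 less variable genes, thinning to 8000 gave 197 more and 120 less variable, and a mean of at least 0.5 UMI gave 76 and 38. Without cells over 2% Malat1, chosen after seeing the data, 531 genes were higher and 678 lower. The log2 ratio turned for Reg4 (0.064 with equal weight per cell) and Gip (0.066 without the highest Scrublet scores). List medians turned for tuft genes (-0.14 in thinned cells, -0.00547 with no floor, -0.13 without cells over 2% Malat1) and chemokines (0.43 at 50 CPM). The cause was not tested. No paired analysis was possible because each condition is 1 library. Depth limits genes under about 10 CPM, and neither treatment has a replicate.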
